A study of Mus musculus with 10 samples.

Results

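The 10 genes described here encode the core of NF-κB signaling and its link to the cytokine TWEAK in muscle. They are the subunit genes Nfkb1, Nfkb2, Rela and Relb, the inhibitor genes Nfkbia, Nfkbiz, Bcl3 and Tnfaip3, the TWEAK receptor gene Tnfrsf12a and the TWEAK gene Tnfsf12. They were chosen by name, and each matched exactly 1 of the 54232 rows of the deposited table. RNA-Seq was performed on muscle, labelled as gastrocnemius but described in the study's text as including plantaris, of 5 homozygous desmin knock-out mice (Des -/-) and 5 wild-type littermates (Des wt/wt). Both genotypes belonged to the strain B6J.129Sv-Destm1Cba/Cscl and were 3 months of age. The sex of the mice was not given in the sources used here, but Y-linked transcripts were present in every library (mean rlog values of 9.52 to 10.62). The deletion is present in the germ line, so that all cells of the muscle lack desmin, the main intermediate filament protein of muscle fibers. Values are regularized log (rlog) values, a log2 measure that shrinks each gene towards its own average, so that differences are smaller than those of the counts. Sequencing depth and counting error are unknown from such values.

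NF-κB transcription factors are dimers that inhibitor proteins of the IκB family hold in the cytoplasm. In the canonical arm, the IKK kinase complex marks IκBα for degradation and releases dimers such as RelA with p50. In the non-canonical arm, the kinase NIK and IKKα drive the processing of p100 to p52, which pairs with RelB. TWEAK acts through its receptor Fn14, encoded by Tnfrsf12a, feeds both arms and is known for promoting muscle wasting. Much of this control acts on proteins, which were not measured here.

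All 10 genes passed the limit for testing, a mean of at least log2(10). At an adjusted p under 0.05 (limma, adjusted over 14289 tested genes), 1 of the 10, Tnfrsf12a, was higher in desmin knock-out muscle and 0 were lower. Over all tested genes, 13.7% were called, 7.7% as higher and 5.99% as lower, so that 1 call among 10 genes is close to the background. The median log2 difference of the 10 genes was 0.11, compared with 0.00 over all tested genes. In 0 of the 10 genes did the 5 knock-out values lie entirely above or below the 5 wild-type values, as 14.4% of all tested genes did. In whole muscle, fewer cells of a type and less RNA per cell cannot be told apart.

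Libraries carried the Des level of their label, with values between 16.10 and 17.74 in wild-type and between 11.76 and 11.89 in desmin knock-out mice. Wild-type mouse 3 stood apart from the other libraries: across genes it correlated with the rest of its genotype at 0.982 on average, and the remaining wild-type libraries at 0.989 to 0.991. Without it, the log2 difference of Tnfrsf12a was 0.77 (adjusted p = 0.0284, limma), that of Relb -0.11 in place of -0.22, of Bcl3 -0.24 in place of -0.13, of Tnfsf12 0.12 in place of 0.07 and of Rela 0.06 in place of 0.00, and none of the latter 4 passed the test. The SD between knock-out mice was below that between wild-type mice for 8 of the 10 genes, and for 82.9% of all tested genes.

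**Figure D1:**
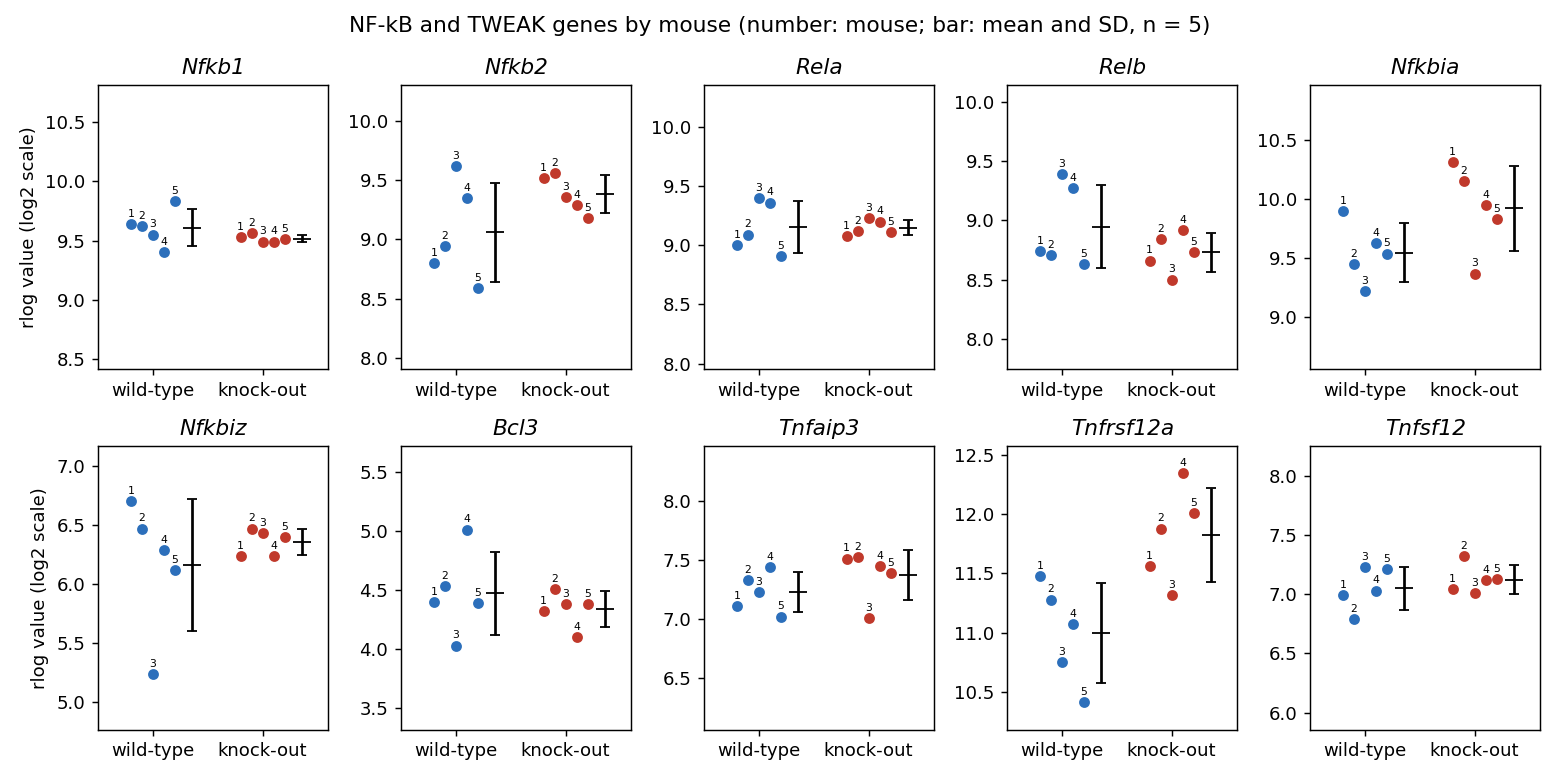
Rlog values (log2 scale, each panel spanning the same width) of the 10 genes in 5 wild-type (blue) and 5 desmin knock-out (red) mice. Points are mice with their number, and bars give the mean and SD (n = 5). Both genotypes overlap in every panel, and in that of Tnfrsf12a 4 of 5 knock-out mice lie above all wild-type mice.

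Tnfrsf12a (ENSMUSG00000023905) encodes Fn14, the TWEAK receptor, which is known to be induced in muscle by denervation and injury. Its GRCm38 span is chromosome 17, 23675445 to 23677468, reverse strand. Values were 11.56, 11.88, 11.32, 12.35 and 12.01 in desmin knock-out mice 1 to 5, and 11.48, 11.28, 10.75, 11.07 and 10.41 in wild-type mice 1 to 5. All knock-out mice but mouse 3 lay above the highest wild-type value, and all wild-type mice but mouse 1 lay below the lowest knock-out value. The means were 11.82 ± 0.40 (SD, n = 5) and 11.00 ± 0.43 (SD, n = 5). The log2 difference of 0.83 (standard error 0.21, 95% interval 0.37 to 1.29, adjusted p = 0.0199 from limma) corresponds to 1.77-fold on this scale. By an exact permutation test, two-sided, p was 0.0159. The difference was larger in size than that of 96.4% of all tested genes, and the level was above that of 87.7%.

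The call for Tnfrsf12a lay close to the threshold. Without knock-out mouse 2, 4 or 5, the adjusted p (limma) was 0.0513, 0.0545 and 0.0554, while the log2 difference stayed between 0.68 and 0.95 whichever mouse was left out. Without a limit on expression, with 28153 genes tested, the adjusted p was 0.0686. Immediate-early genes, which respond within minutes to activity, injury or handling, were also looked at. In knock-out muscle, 6 of 15 such genes were called higher (limma) and 0 lower. Egr2 (log2 difference 1.02), Egr3 (0.87) and Dusp1 (0.50) had the smallest adjusted p. The wild-type mean of Egr3 (3.30) lay just under the limit for testing, so that it was tested only through its knock-out mean of 4.18. Averaged over the 15 genes, rlog values lay at 8.60 to 8.85 in the knock-outs. For wild-type mice 1 to 5 the averages were 8.94, 8.44, 7.70, 7.79 and 7.82. The 3 wild-type mice with the lowest immediate-early mean were also those with the lowest Tnfrsf12a values. With this mean as a covariate, the log2 difference of Tnfrsf12a was 0.51 (adjusted p = 0.255, limma), so that the call was lost. Over all tested genes, calls fell from 1956 to 1009 with this covariate. Since wild-type mice 2 to 5 all had a mean below that of every knock-out, the fit cannot tell genotype and immediate-early level apart. The cause was not tested.

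**Figure D2:**
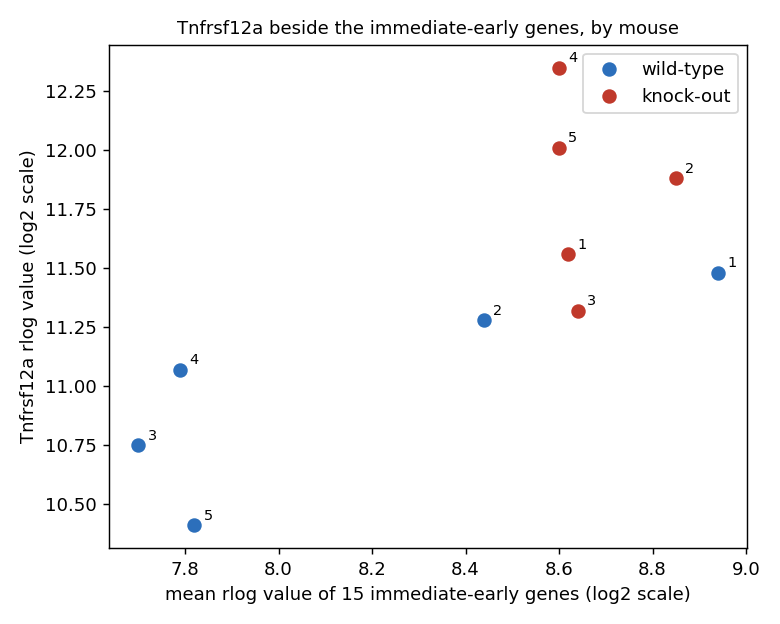
Rlog value of Tnfrsf12a (y axis, log2 scale) against the mean rlog value of 15 immediate-early genes (x axis, log2 scale) in 5 wild-type (blue) and 5 desmin knock-out (red) mice, numbered by mouse. Wild-type mice 3, 4 and 5 are low on both axes, and wild-type mouse 1, with the highest x value of 8.94, has a Tnfrsf12a value of 11.48 that lies within the knock-out range.

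Among all tested genes, the pattern of Tnfrsf12a was most like that of Gm13889, Klf11 and Gm28800. Likeness was measured as the SD, over the 10 mice, of the difference between the rlog values of 2 genes. It was 0.24 for Gm13889, 0.25 for Klf11, which encodes a Krüppel-like transcription factor, and 0.25 for Gm28800, compared with a median of 0.623 over all tested genes. Klf11 and Gm28800 were called higher, by 0.69 (adjusted p = 0.0132) and 0.74 (adjusted p = 0.00456, both limma), whereas the log2 difference of 0.72 for Gm13889 did not pass (adjusted p = 0.0844, limma).

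Tnfsf12 (ENSMUSG00000097328, chromosome 11, 69686250 to 69695849) encodes TWEAK, the ligand of Fn14. Its values were 7.04, 7.32, 7.01, 7.12 and 7.13 in desmin knock-out mice 1 to 5, and 6.99, 6.79, 7.23, 7.03 and 7.21 in wild-type mice 1 to 5. The ranges overlapped widely, and the log2 difference was 0.07 (standard error 0.11, 95% interval -0.17 to 0.32, adjusted p = 0.719 from limma). The gene lies entirely within the span of Tnfsfm13, a readthrough gene on the same strand, and 4892 of its bases overlap Tnfsf13os on the opposite strand. Reads could have been split between these genes, because the rules for overlaps and strand used in counting were not given in the sources used here. Within each mouse, the rlog value of the receptor gene exceeded that of the ligand gene by 4.31 to 5.22 in desmin knock-out and by 3.19 to 4.49 in wild-type muscle. This within-mouse difference, which does not depend on library scaling, exceeded the highest wild-type value in 4 of 5 knock-out mice. Cd163, a scavenger receptor of macrophages that also binds TWEAK, averaged 7.15 ± 0.60 (SD, n = 5) in wild-type mice, against 7.14 ± 0.04 (SD, n = 5) in their knock-out littermates.

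**Figure D3:**
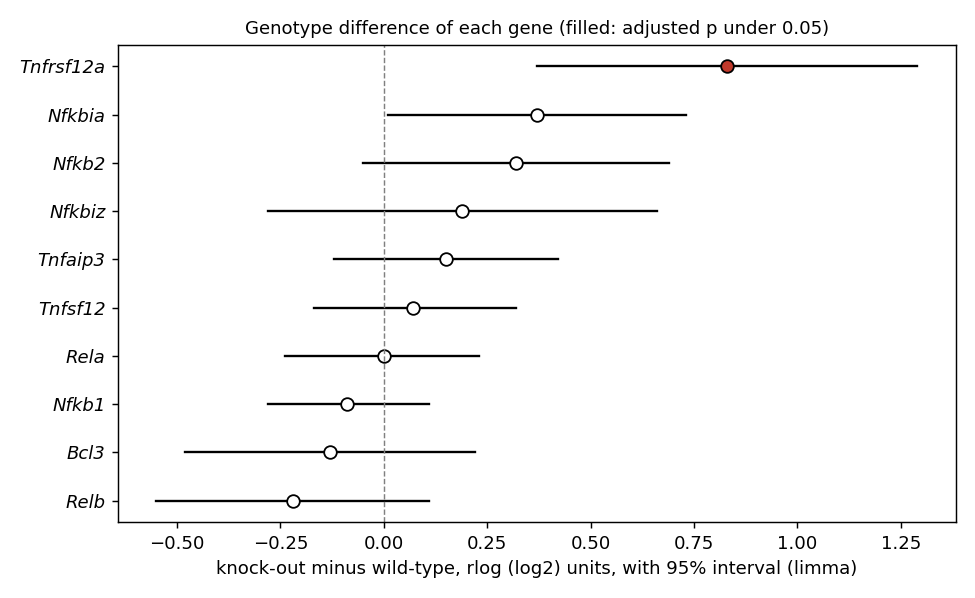
Knock-out minus wild-type difference in rlog (log2) units for each of the 10 genes (points), with the 95% interval from limma (lines). The filled point is Tnfrsf12a at 0.83, the only gene with an adjusted p under 0.05, and the intervals of all other genes but Nfkbia reach across 0.

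Of the subunit genes, 0 of 4 passed the test. Nfkb2 (ENSMUSG00000025225, chromosome 19, 46304320 to 46312385) encodes p100, the precursor of p52 and an inhibitor of RelB. Its values were 9.52, 9.56, 9.36, 9.29 and 9.18 in desmin knock-out mice 1 to 5, and 8.80, 8.94, 9.62, 9.35 and 8.59 in wild-type mice 1 to 5. Wild-type mice 1, 2 and 5 lay below all knock-out mice, whereas wild-type mouse 3 had the highest value of all 10. The log2 difference was 0.32 (standard error 0.17, 95% interval -0.05 to 0.69, adjusted p = 0.249 from limma). Without wild-type mouse 3, it was 0.46 with an adjusted p of 0.0324 (limma), so that 1 library decided this call.

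Relb (ENSMUSG00000002983, chromosome 7, 19606217 to 19629438), the partner of p52, had 8.66, 8.84, 8.50, 8.92 and 8.73 in desmin knock-out mice 1 to 5. In wild-type mice 1 to 5 it had 8.74, 8.71, 9.39, 9.27 and 8.63. Wild-type mice 3 and 4 were above all other mice, and the remaining 8 mice were intermingled. The log2 difference was -0.22 (standard error 0.15, 95% interval -0.55 to 0.11, adjusted p = 0.383 from limma).

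Rela (ENSMUSG00000024927, chromosome 19, 5637483 to 5648130) encodes the p65 subunit of the canonical dimer. It had 9.08, 9.12, 9.23, 9.20 and 9.11 in desmin knock-out mice 1 to 5, and a lowest value of 8.91, a median of 9.09 and a highest value of 9.40 in wild-type mice. The knock-out values lay inside the wild-type range, and the 95% interval of the difference was -0.24 to 0.23. Nfkb1 (ENSMUSG00000028163, chromosome 3, 135584655 to 135691547), which encodes p105 and p50, had a range of 9.49 to 9.56 in desmin knock-out and of 9.40 to 9.83 in wild-type mice. Its log2 difference was -0.09 (standard error 0.09, 95% interval -0.28 to 0.11, adjusted p = 0.569 from limma). For both canonical subunits the interval stayed within 0.3 of 0.

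Of the inhibitor genes, 0 of 4 passed the test as well. Nfkbia (ENSMUSG00000021025, chromosome 12, 55489410 to 55492647) encodes IκBα, itself a target of NF-κB that closes a feedback loop. Its values were 10.31, 10.15, 9.37, 9.95 and 9.83 in desmin knock-out mice 1 to 5 and 9.90, 9.45, 9.22, 9.63 and 9.54 in wild-type mice 1 to 5. Knock-out mice 1, 2 and 4 exceeded all wild-type mice, while knock-out mouse 3 lay below all wild-type mice but mouse 3. The log2 difference was 0.37 (standard error 0.17, 95% interval 0.01 to 0.73, adjusted p = 0.169 from limma). By an exact permutation test, two-sided, p was 0.103. Without knock-out mouse 3, the log2 difference was 0.51 with an adjusted p of 0.0407 (limma).

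Tnfaip3 (ENSMUSG00000019850, chromosome 10, 19000910 to 19015657) encodes the ubiquitin-editing enzyme A20, which shuts off signaling downstream of TNF receptors. It had 7.51, 7.52, 7.01, 7.45 and 7.39 in desmin knock-out and 7.11, 7.33, 7.23, 7.44 and 7.02 in wild-type mice 1 to 5. Knock-out mouse 3 was again the lowest of its genotype, and below all wild-type mice. The log2 difference was 0.15 (standard error 0.13, 95% interval -0.12 to 0.42, adjusted p = 0.479 from limma). Knock-out mouse 3 had the lowest value of its genotype for Nfkbia, Tnfaip3, Tnfrsf12a, Tnfsf12 and Relb.

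Nfkbiz (ENSMUSG00000035356, chromosome 16, 55811375 to 55838899) and Bcl3 (ENSMUSG00000053175, chromosome 7, 19808462 to 19822770) encode atypical, nuclear IκB proteins that act as cofactors of p50 and p52. Nfkbiz ranged from 6.24 to 6.47 in desmin knock-out mice and from 5.24 to 6.70 in wild-type mice, wild-type mouse 3 being the lowest. Its log2 difference was 0.19 (95% interval -0.28 to 0.66, adjusted p = 0.606 from limma) and -0.04 without that mouse. Bcl3, the least abundant of the 10 genes, ranged from 4.10 to 4.51 and from 4.03 to 5.01. Its log2 difference was -0.13 (95% interval -0.48 to 0.22, adjusted p = 0.637 from limma).

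To compare levels between genes, log2 of the exon length in kb was subtracted from each rlog value. This length joins all annotated exons of a gene, so that it can exceed that of the transcripts present in muscle. Narrow gaps, such as that of 0.14 between Nfkb2 and Relb, may therefore depend on the length used. On this scale per length, Tnfrsf12a had the highest level over the 10 mice with 10.46 ± 0.58 (SD, n = 10), followed by Nfkbia with 9.05 ± 0.35. In all 10 mice Tnfrsf12a exceeded Nfkbia, and Nfkbia exceeded Rela at 7.53 ± 0.15. Nfkb2 (7.02 ± 0.34) and Relb (6.88 ± 0.29) changed places with genotype, Nfkb2 being higher in 5 of 5 knock-out and 0 of 5 wild-type mice. This change of places depends on the lengths used. Before the subtraction, Nfkb2 also exceeded Relb in wild-type mice 1 to 4, by 0.06, 0.22, 0.23 and 0.08. Tnfsf12 at 6.49 ± 0.15 lay above Nfkb1 at 5.97 ± 0.12 in all mice. Their exon lengths were 1515 and 12061 bases, so that this order depends on the lengths used. Tnfaip3 (4.45 ± 0.19) and Nfkbiz (3.93 ± 0.39) kept their order in 9 of 10 mice, and Bcl3 was lowest at 3.10 ± 0.26.

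**Figure D4:**
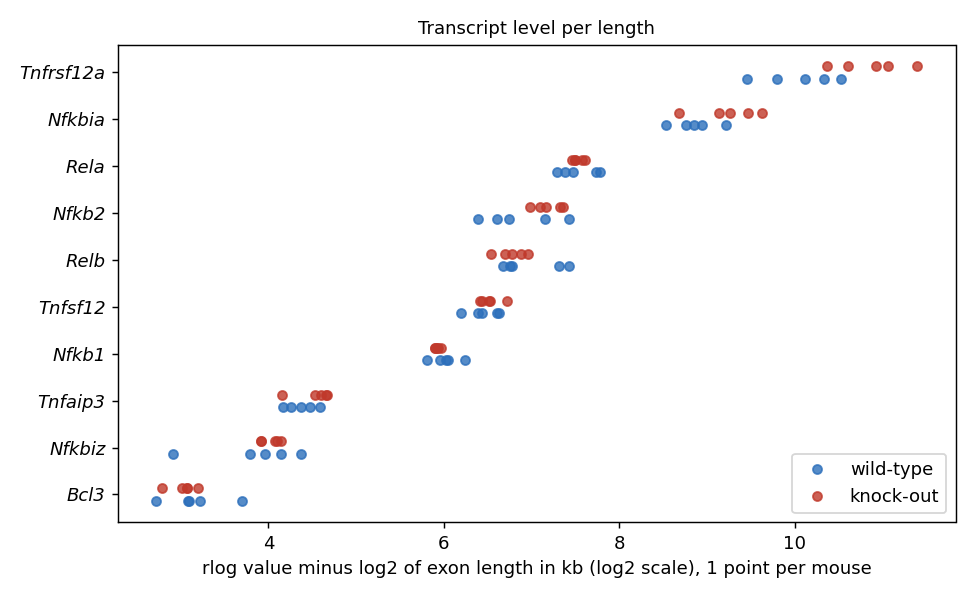
Rlog value minus log2 of the exon length in kb (x axis, log2 scale) for the 10 genes, with 1 point for each wild-type (blue) and desmin knock-out (red) mouse. Tnfrsf12a is highest with a mean of 10.46 and Bcl3 lowest with 3.10.

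Within mice, Nfkb2 minus Nfkb1, the balance of the 2 precursor genes, was -0.14 ± 0.14 (SD, n = 5) for the knock-outs, against -0.55 ± 0.55 (SD, n = 5) for the wild-type mice. Relb minus Rela was -0.42 ± 0.18 (SD, n = 5) and -0.20 ± 0.15 (SD, n = 5), respectively. Nfkbia minus Rela, the inhibitor against its main partner, was 0.77 ± 0.41 (SD, n = 5) and 0.40 ± 0.41 (SD, n = 5). These 3 balances overlapped between the genotypes. Nfkb2 minus Relb, the p52 precursor against the partner of p52, did not: its values were 0.86, 0.71, 0.86, 0.37 and 0.45 in knock-out mice 1 to 5, and 0.06, 0.22, 0.23, 0.08 and -0.04 in wild-type mice 1 to 5. The means were 0.65 ± 0.23 (SD, n = 5) and 0.11 ± 0.12 (SD, n = 5). The difference was larger in every knock-out mouse than in any wild-type mouse, although neither gene passed the test by itself. The rlog values were not corrected for length here, so that the sign does not show which gene had the higher level. This pair was chosen after its values were seen and was given no test. Among all 45 pairs of the 10 genes, 2 did not overlap, the other being Tnfrsf12a minus Relb with 2.82 to 3.43 in knock-out and 1.36 to 2.74 in wild-type mice. Both pairs hold Relb. The share of pairs without overlap among all tested genes was not computed, and of single tested genes 14.4% did not overlap.

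NF-κB binds a 10-letter sequence known as the κB consensus. RefSeq promoters (GRCm38.p6, 250 bases before to 50 after a start) were given for 6 of the 10 genes, and 4 of these, Nfkb2, Nfkbia, Bcl3 and Tnfaip3, held a match on either strand. Of all 27025 genes with a promoter, 9.55% did. The promoters of Tnfrsf12a and Rela held none. A match is a description of letters and not a binding site. The promoters of Tnfrsf12a, the gene that was called, and of the 4 genes with a match, none of which was called, are printed below with the κB matches in capitals. Their positions are chr17:23677400-23677699 for Tnfrsf12a (reverse strand), chr19:46304487-46304786 for the first start of Nfkb2 (forward strand), chr12:55492598-55492897 for Nfkbia, chr10:19015361-19015660 for Tnfaip3 and chr7:19822706-19823005 for Bcl3 (all reverse strand).
Tnfrsf12a: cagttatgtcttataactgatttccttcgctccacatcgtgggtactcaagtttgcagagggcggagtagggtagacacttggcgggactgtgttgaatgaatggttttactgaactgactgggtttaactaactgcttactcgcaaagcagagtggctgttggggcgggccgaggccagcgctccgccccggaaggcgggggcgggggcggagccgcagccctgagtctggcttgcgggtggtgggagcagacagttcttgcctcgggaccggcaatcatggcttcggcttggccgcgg
Nfkb2: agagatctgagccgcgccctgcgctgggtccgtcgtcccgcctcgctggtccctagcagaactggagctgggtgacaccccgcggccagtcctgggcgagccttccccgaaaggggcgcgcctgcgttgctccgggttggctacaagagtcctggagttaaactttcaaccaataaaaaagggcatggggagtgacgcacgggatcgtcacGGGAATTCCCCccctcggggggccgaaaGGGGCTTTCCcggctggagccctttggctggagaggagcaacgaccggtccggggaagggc
Nfkbia: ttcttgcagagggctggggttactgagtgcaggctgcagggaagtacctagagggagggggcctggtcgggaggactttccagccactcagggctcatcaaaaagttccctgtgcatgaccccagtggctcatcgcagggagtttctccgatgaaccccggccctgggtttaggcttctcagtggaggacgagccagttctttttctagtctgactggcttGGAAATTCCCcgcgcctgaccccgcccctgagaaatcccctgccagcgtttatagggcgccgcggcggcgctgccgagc
Tnfaip3: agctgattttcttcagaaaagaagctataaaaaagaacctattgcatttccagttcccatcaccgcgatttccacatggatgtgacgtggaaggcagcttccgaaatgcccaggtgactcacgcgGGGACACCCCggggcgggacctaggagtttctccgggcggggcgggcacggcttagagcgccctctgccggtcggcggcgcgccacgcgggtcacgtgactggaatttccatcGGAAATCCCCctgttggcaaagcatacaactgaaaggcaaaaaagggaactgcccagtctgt
Bcl3: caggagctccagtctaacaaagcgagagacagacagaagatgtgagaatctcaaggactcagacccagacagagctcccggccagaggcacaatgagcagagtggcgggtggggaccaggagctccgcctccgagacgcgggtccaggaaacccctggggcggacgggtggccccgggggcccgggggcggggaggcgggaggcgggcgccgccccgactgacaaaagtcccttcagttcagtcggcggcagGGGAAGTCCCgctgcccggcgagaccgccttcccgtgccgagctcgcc
In Nfkb2, matches that overlap begin 39 and 38 bases before the start, and a further match begins 11 bases before it. In Bcl3 the match begins 2 bases after the start. In Nfkbia the match begins 29 bases before the start, and in Tnfaip3 matches begin 125 and 12 bases before it. The 2 other starts of Nfkb2 also held matches, and the other start of Tnfaip3 held none. Of the 18 genes with a promoter in the list of NF-κB targets described next, 10 held a match.

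The other genes of the pathway were taken from lists of 103 genes, of which 80 passed the limit for testing. Of these, 11 were higher (13.8%) and 4 were lower (5%) in desmin knock-out muscle at an adjusted p under 0.05 (limma), compared with 7.7% and 5.99% of all tested genes. Their median log2 difference was 0.04.

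The receptors that feed NF-κB had the most calls, with 4 of 13 tested genes higher and 1 lower and a median of 0.26. Toll-like receptor gene Tlr2 averaged 6.44 ± 0.18 (SD, n = 5) in the knock-outs against 5.07 ± 0.17 (SD, n = 5), higher by 1.37 (limma, adjusted p = 8.3e-06). Eda2r, the receptor for ectodysplasin A2, rose by 1.34 and Tnfrsf19, an orphan receptor of the TNF receptor family also called Troy, by 0.83. Tlr4, the receptor for bacterial lipopolysaccharide, had a log2 difference of 1.22. Il1r1, the receptor for interleukin-1, lay at 8.01 to 8.43 in knock-out and 8.77 to 9.60 in wild-type mice (log2 difference -1.10, limma adjusted p = 4.6e-04). The TNF receptor genes Tnfrsf1a (log2 difference 0.04) and Tnfrsf1b (-0.19) did not pass the test, and Tnfrsf25 (0.55, adjusted p = 0.0521, limma) fell just short. Of the ligands, 4 of 13 reached the limit for testing and 0 were called in either direction (1 without wild-type mouse 5), with a median of -0.04. Tnf had mean rlog values of 0.87 in desmin knock-out and 0.72 in wild-type muscle, and Il1b of 1.76 and 1.91, all under the limit. For Tnfsf10, the gene for TRAIL, the log2 difference was 0.50 and did not pass (limma, adjusted p = 0.133).

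Among adaptors and ubiquitin ligases, 1 of 16 tested genes was called, the TNF receptor-associated factor gene Traf5, which was higher by 0.56 (adjusted p = 0.0188 from limma). In this list 0 genes were called with the immediate-early covariate and 2 without wild-type mouse 3. The genes for cIAP1 and cIAP2, Birc2 (log2 difference 0.02) and Birc3 (0.17), did not pass. Myd88 (0.27, adjusted p = 0.0837, limma) did not pass either, although its values did not overlap between the genotypes. Of the 12 genes of the IKK complex, upstream kinases and their adaptors, 1 was higher and 2 were lower, with a median of 0.13. Without knock-out mouse 1, 2 or 3, 1 in place of 3 was called. Ikbkb, the catalytic IKKβ subunit of the canonical arm, lay at 9.60 to 10.03 against 9.29 to 9.53 and was higher by 0.39 (limma, adjusted p = 0.0196). Tab2, an adaptor of the kinase TAK1 upstream of IKK, had a log2 difference of -0.43 and Map3k3, encoding MEKK3, of -0.57. Map3k14, which encodes NIK of the non-canonical arm, had 8.03 ± 0.26 (SD, n = 5) and 7.85 ± 0.62 (SD, n = 5), and its log2 difference of 0.18 did not pass.

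Genes that restrain NF-κB had 3 of 12 tested members higher and 0 lower, with a median of 0.01. These were Otulin, a deubiquitinase for linear ubiquitin chains (log2 difference 0.60, adjusted p = 0.00288), Tnip2, an A20-binding protein (0.50, adjusted p = 0.00269), and the deubiquitinase gene Cyld (0.44, adjusted p = 0.00663, all limma). For each of them the genotypes did not overlap. Tnip1, a related A20-binding protein, had a log2 difference of -0.26 and did not pass. The other Rel and IκB genes, of which 4 of 5 were tested, had 0 calls and a median of -0.03. Among them, Nfkbie, which encodes IκBε, differed by 0.29 on the log2 scale (limma, adjusted p = 0.125), and Rel by 0.15, neither of which passed.

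Of 19 tested NF-κB target genes, 2 were higher and 1 was lower, with a median of 0.04. The share called, 15.8%, was close to the 13.7% over all tested genes. Cd44, a hyaluronan receptor, was higher by 1.11 and the chemokine gene Ccl5 by 0.53, whereas the gelatinase gene Mmp9 had a log2 difference of -0.63. The wild-type mean of Ccl5 (3.06) lay under the limit for testing, so that it was tested only through its knock-out mean of 3.59. The endothelial adhesion genes Icam1 (log2 difference 0.04) and Vcam1 (0.21), the mitochondrial superoxide dismutase gene Sod2 (-0.15) and Trim63 (-0.27), which encodes the muscle ubiquitin ligase MuRF1, did not pass. Of the target genes that were not called, Cxcl10 (0.69, adjusted p = 0.0707), Cxcl16 (0.49, adjusted p = 0.0767) and Nos2 (-0.40, adjusted p = 0.11, all limma) differed most. Il6, with means of 2.12 and 2.13, lay under the limit.

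**Figure D5:**
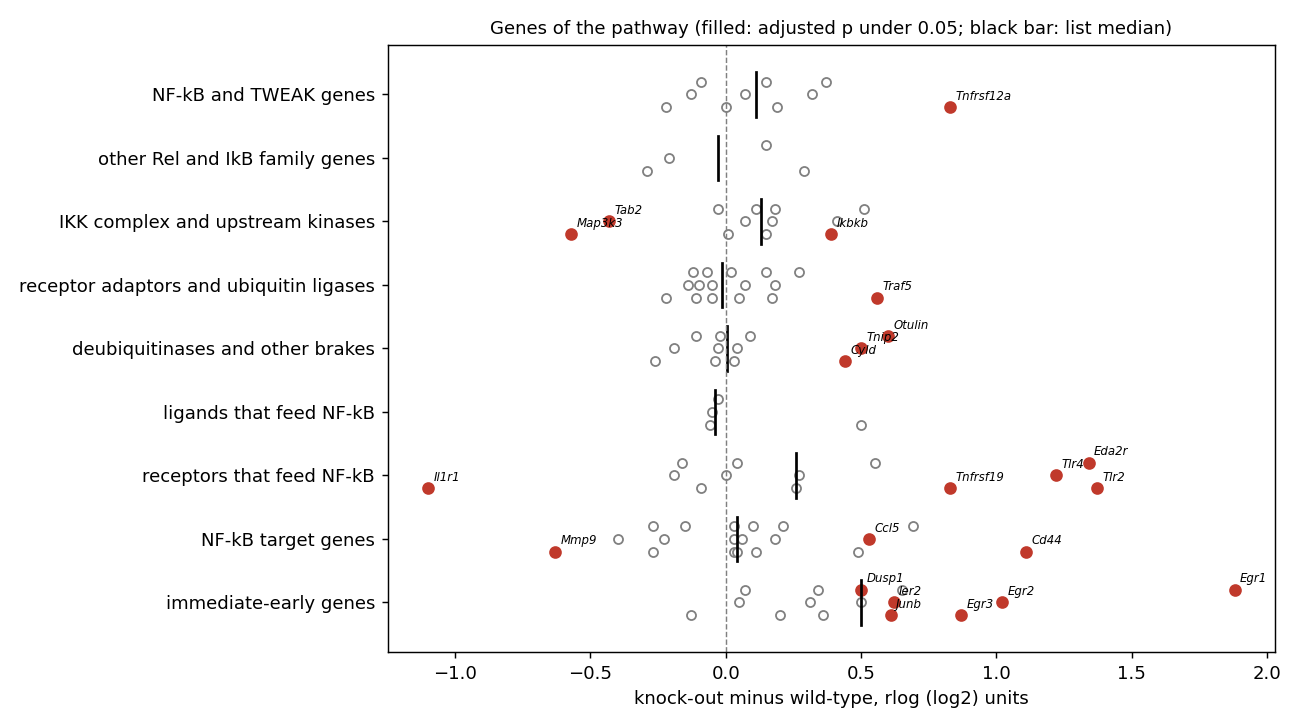
Knock-out minus wild-type differences in rlog (log2) units (x axis) of the tested genes of each list, with filled points for genes with an adjusted p under 0.05 (limma) and a black bar at the list median. Receptors range from Il1r1 at -1.10 to Tlr2 at 1.37, while 1 of the 10 NF-κB and TWEAK genes is filled.

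NF-κB and TWEAK genes are expressed in several cell types of muscle, and markers of these were compared between the genotypes. Of 10 macrophage markers, 0 were called, with summed levels of 11.15 to 11.60 in desmin knock-out and 10.98 to 11.50 in wild-type mice. T cell markers lay under the limit, with 0 of 6 tested. Of the B cell markers 1 of 4 was tested and not called. Of the neutrophil markers 2 of 5 were tested, and S100a9 was lower (log2 difference -1.18) while S100a8 did not pass (0.02). The knock-out mean of S100a9 (2.84) lay under the limit for testing, so that it was tested only through its wild-type mean of 4.02. Of 6 endothelial markers, Vwf (log2 difference -0.62), Cdh5 (-0.52), Pecam1 (-0.49) and Tek (-0.41) were lower and 0 were higher, and their summed level was 11.62 to 12.07 against 12.11 to 12.48. Of 6 fibroblast markers, Lum (0.99), Col3a1 (0.52) and Col1a1 (0.50) were higher and Ly6a (-0.40) was lower, with summed levels of 13.69 to 14.27 against 13.35 to 14.23. Markers of satellite cells and regenerating fibers had 4 of 7 genes higher, the embryonic myosin gene Myh3 (2.25), the fusion gene Mymk (1.93), Myog (1.23) and Myh8 (0.85), and Myod1 lower (-0.47). Their summed level was 10.95 to 11.61 in desmin knock-out and 10.28 to 10.67 in wild-type mice, without overlap. Pax7, which marks satellite cells themselves, had a log2 difference of 0.01. Of 6 fiber markers, Myh4 was called lower (-0.71) and 0 were called higher, and their summed level was 21.93 to 22.10 against 22.13 to 23.15. Their median log2 difference was -0.41, but Myh1 went the other way without passing (0.58, adjusted p = 0.132, limma). The part of these cell types in the Tnfrsf12a result was not tested.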

How the data were processed

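Per the submitters' processing notes, reads were handled with cutadapt 2.5, STAR 2.5.4a and featureCounts of Subread 1.6.1 on GRCm38, and DESeq2. The authors deposited rlog values (log2 scale) for 10 mice. The settings of rlog and the strand setting of counting were not given in the sources used here. Counts were not used here, and depth is unknown. The labels name 1 mouse per column, whereas the methods speak of pooled RNA, and each column was used as 1 replicate.

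Symbols, positions and exon lengths came from GENCODE M21 on GRCm38. The genotypes were compared with limma 3.58.1 (R 4.3.3, variance trend, two-sided) for the 14289 genes whose mean reached log2(10), with Benjamini-Hochberg adjustment over these, and the fit was tested on simulated data. Alternatives were no limit or log2(50), sample weights, a prior variance without trend, centring on medians, quantile normalization, mouse number as a block, Y-linked or immediate-early transcripts as covariate, each mouse left out, and an adjusted p under 0.01. The members, lists and alternatives were chosen with earlier results of these data known. The text names the 10 genes, up to 3 genes of each list with the smallest adjusted p, ligands, receptors and kinases, and the 3 genes most like a called member. Further genes of the lists, such as Birc2, Nfkbie, Icam1 or Trim63, were named for their role after their values were seen.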

Additional observations from a re-analysis of the deposited data

Results flagged for a closer look

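In 20 groups of 5 mice, each of the 10 genes in either genotype, the lowest or highest mouse was compared with the other 4, and 1 group had a mouse far from the rest, as chance gives for about 1 in 20. This was desmin knock-out mouse 3 for Tnfaip3, with 7.01 against 7.39 to 7.52 in the other knock-out mice.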

How the results depend on the processing

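The number of called genes among the 10 was 1, and 10 of 20 alternatives gave the same number. It was 0 without a limit on expression, 0 with the immediate-early covariate and 0 at an adjusted p under 0.01, and 2 with sample weights and 2 with the Y-linked covariate, the added gene being Nfkb2 in both (log2 differences 0.44 and 0.54). With single mice left out, it was 0 to 2, with 0 without knock-out mouse 2, 4 or 5, and 2 without knock-out mouse 3 (Nfkbia added) or wild-type mouse 3 (Nfkb2 added). Tnfrsf12a was higher in all 19 fits. Its log2 difference was 0.83 without a limit (adjusted p = 0.0686), 0.51 with the immediate-early covariate (adjusted p = 0.255) and 0.68 to 0.95 with single mice left out (adjusted p = 0.0104 to 0.0554, all limma). The number of genes without overlap was 0, and 0 to 1 with single mice left out, the 1 being found without knock-out mouse 3 or without wild-type mouse 1. The called pathway genes numbered 15, 12 to 17 with single mice left out, and 26 with sample weights.

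Genes near 0 changed sign. Rela had 0.11 with sample weights, 0.10 with the Y-linked and 0.11 with the immediate-early covariate, and -0.06 to 0.06 with single mice left out. Relb had 0.04 with sample weights. Nfkbiz had -0.14 with sample weights, -0.08 with the Y-linked and -0.22 with the immediate-early covariate, and -0.04 to 0.33 with single mice left out. Bcl3 had -0.24 to 0.00 with single mice left out, and Tnfsf12 had 0.00 after quantile normalization. None of these passed the threshold in those fits, and the cause was not tested.

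Mice with the same number did not deviate together (correlations of -0.219 to 0.0673), and the main fit treated them as unpaired. These correlations cannot show whether such mice were littermates or were handled together. With the mouse number as a replicate block, 1 of the 10 genes was called, Tnfrsf12a (log2 difference 0.83, adjusted p = 0.0156, limma), and 14 pathway genes. Over the whole table, 1956 genes were called, 4220 with sample weights and 1009 with the immediate-early covariate. A limit of log2(50) left no value for Bcl3. Called adaptor genes numbered 1, and 3 with sample weights or the Y-linked covariate. Called target genes numbered 3, 1 with a limit of log2(50), 7 with sample weights and 4 if wild-type mouse 3 was left out.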
